A study of Lathyrus oleraceus with 4 samples.

Results

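The 3 transcripts described here are carried by single probes of a pea oligonucleotide array. AY007467 was designed on the gene for the photosystem II protein CP47 (psbB), AY292531 on the transcript of an oxygen-evolving enhancer protein, named in the study's lists as the precursor of enhancer protein 3, and AY065656 on the transcript of RuBisCO activase. They are 3 of the 2234 probes on the array. They were chosen by name from transcripts that the study listed as less abundant in the shoot apical meristem (SAM) than in non-meristem tissue (NM), so the SAM/NM ratios below selected them and are given as a description, with no test.

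SAMs were dissected without leaf primordia from 10-day-old greenhouse plants of the garden pea cultivar Torsdag, about 80 to an extraction. The NM tissue of the same collection was a mixture of primary stem, primary root and mature leaf. Each of 4 arrays, called sectors 1 to 4, was hybridized with both tissues of 1 of 4 independent collections, the SAM carrying the dye Cy3 on sectors 1 and 3. On sectors 2 and 4 it carried Cy5, and the NM had the other dye on each array. No plant carried a mutation or treatment, and the shares of stem, root and leaf in the NM samples of the arrays were not given in the sources used here, although the methods give an equal mix for the NM RNA of a subtracted library.

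Photosystem II is the thylakoid complex that uses light to split water. CP47 is a chlorophyll-binding antenna protein of its core and is encoded in the plastid genome. The oxygen-evolving enhancer proteins are nuclear-encoded, are imported into the plastid, and sit on the lumenal side of photosystem II beside the manganese cluster where oxygen is released. RuBisCO activase is a nuclear-encoded stromal ATPase that removes inhibitory sugar phosphates from RuBisCO, the enzyme that fixes carbon dioxide. Assembly of a photosynthetically active chloroplast draws on both genomes, and cells of the shoot meristem hold small undifferentiated plastids. The record AY007467 also spans the neighbouring plastid genes psbT and psbN, so the probe may lie in any of these genes. Probe sequences were not used here.

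Channels are only numbered in the deposited tables, and Cy3 comes before Cy5 in the labels of the samples. Channel 1 was taken as Cy5, and the direction is likely rather than settled. Its basis is that the GenBank-named probes of the study's lists fall on their listed side only under this reading. Clones of a library enriched for SAM transcripts by subtraction of NM had a median log2 SAM/NM of 0.098 under it. With the channels exchanged, every ratio would keep its size and change its sign. Under this reading, all 5 probes for proteins of dividing cells (2 for proliferating cell nuclear antigen, 1 for cyclin D, 2 for mini-chromosome maintenance proteins) were called higher in the SAM, with log2 SAM/NM from 0.54 to 2.00. Of all probes, 9.76% were called higher. The type 1 metallothionein AB176564, taken here as a root marker, had a log2 ratio of -4.22. The study had reported the metallothionein, the cyclin D probe and a nuclear antigen probe with these directions on the same arrays. Since the reading was chosen to match the study's lists, these markers are a description and no separate check of it.

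All 3 photosynthetic transcripts had less signal from the SAM than from the NM on each of the 4 arrays. The mean SAM signal was 13.4% of the NM signal for the oxygen-evolving enhancer, 17.7% for RuBisCO activase and 39.1% for CP47. Over the whole array, 376 probes, or 16.8%, were lower in the SAM on all 4 arrays. All 3 probes met the criteria for a lower call, a ratio below 0.7 with an adjusted p under 0.05 (limma), as were 7.34% of all probes. Nothing is read from these counts, since the same contrast chose the 3 probes. In these bulk samples fewer cells of a type and less RNA per cell cannot be told apart.

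**Figure D1:**
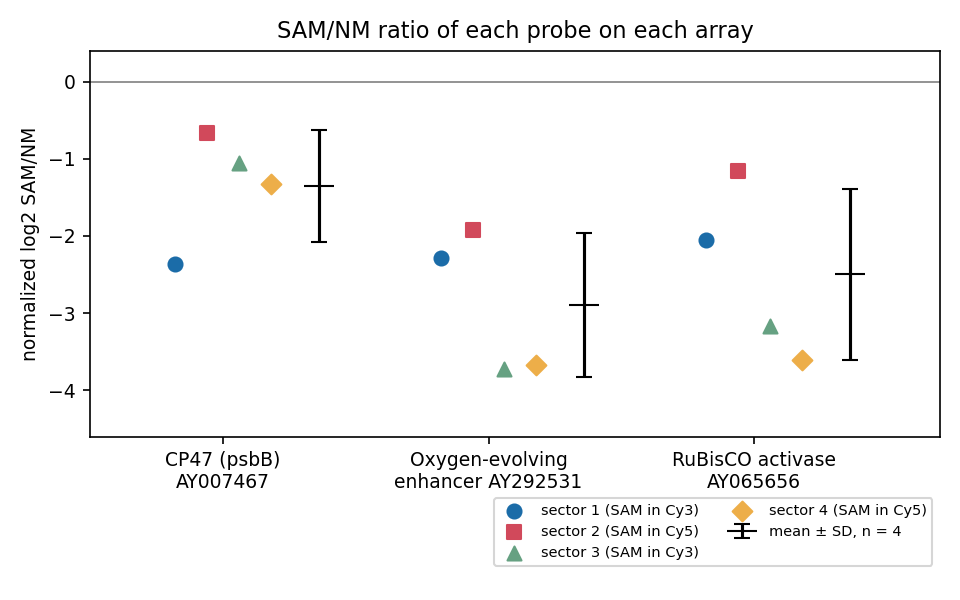
Normalized log2 SAM/NM ratio of the 3 probes, with 1 point per array (the symbol gives the sector and the dye of the SAM) and the mean with its SD over 4 arrays in black. CP47 was lowest on sector 1 at -2.36. The oxygen-evolving enhancer and RuBisCO activase lay below -3.1 on sectors 3 and 4 only, a split that their ratios before normalization did not show.

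The CP47 probe AY007467 gave raw SAM intensities of 411, 153.5, 445 and 589 on sectors 1 to 4. The NM intensities on the same sectors were 1821, 553.5, 562 and 853. After normalization within arrays its log2 SAM/NM was -2.36, -0.67, -1.06 and -1.33 on sectors 1 to 4. Sector 1 stood farther below the next array than the other 3 arrays stood from each other. The mean was -1.35 ± 0.72 (SD, n = 4 arrays), and it was -1.02 without sector 1. The SAM signal was thus between 19.5% of the NM signal on sector 1 and 63.0% on sector 2. Before normalization sector 1 was also the lowest, at -2.15, and sector 2 was next at -1.85.

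The oxygen-evolving enhancer probe AY292531 gave raw SAM intensities of 463, 153, 647 and 909.5 on sectors 1 to 4, and NM intensities of 2026, 1147.5, 5933 and 4781. Its normalized log2 SAM/NM was -2.28, -1.92, -3.72 and -3.67 on these sectors. Sectors 3 and 4, 1 array of each dye orientation, were the low pair. Before normalization the log2 SAM/NM was -2.13, -2.91, -3.20 and -2.39, lowest on sectors 3 and 2, so the split between arrays depends on the normalization. The mean was -2.90 ± 0.94 (SD, n = 4 arrays), the ninth lowest of the 2234 probes.

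The RuBisCO activase probe AY065656 gave raw SAM intensities of 311, 103, 497 and 637 on sectors 1 to 4, and NM intensities of 932, 554.5, 2844 and 3503. Its normalized log2 SAM/NM was -2.05, -1.16, -3.17 and -3.61 in the same order. Sectors 3 and 4 were again the low pair, and sector 2 was the array nearest to 0. Before normalization the log2 SAM/NM was -1.59, -2.43, -2.52 and -2.46, nearest to 0 on sector 1 and close together on the other arrays. The SD over 4 arrays was then 0.44 for RuBisCO activase, 0.48 for the oxygen-evolving enhancer and 0.91 for CP47. The mean was -2.50 ± 1.11 (SD, n = 4 arrays), the 16th lowest of all probes, and CP47 was the 52nd.

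The order of the mean ratios, from the lowest, was therefore the oxygen-evolving enhancer, RuBisCO activase and CP47. The means of the nuclear-encoded pair lay nearer to each other than to that of CP47. RuBisCO activase minus the oxygen-evolving enhancer was 0.24, 0.75, 0.55 and 0.07 on sectors 1 to 4, above 0 on all 4 arrays. Its mean was 0.40 ± 0.31 (SD, n = 4). Before normalization this difference was 0.55, 0.48, 0.68 and -0.07, so its sign on sector 4 depends on the normalization. CP47 minus the oxygen-evolving enhancer was -0.08, 1.25, 2.66 and 2.34 on sectors 1 to 4, a mean of 1.55 ± 1.24 (SD, n = 4). CP47 minus RuBisCO activase was -0.31, 0.50, 2.11 and 2.28, a mean of 1.14 ± 1.26 (SD, n = 4). CP47 was therefore less reduced in the SAM than either nuclear-encoded transcript on sectors 2, 3 and 4, and slightly more reduced on sector 1. In the list described below, the 2 plastid-encoded transcripts, with means of -1.39 and -2.00, were also less reduced than this nuclear-encoded pair. Their median log2 SAM/NM was -1.70, however, and that of the 19 nuclear-encoded transcripts of the list was -1.34, close to the mean of CP47. The order therefore depends on which nuclear-encoded transcripts are compared. The differences were not tested, because they come from the contrast that chose the probes, and an exact two-sided sign-flip test over 4 arrays could not reach a p under 0.05. With no normalization within arrays, CP47 minus the oxygen-evolving enhancer was -0.02, 1.06, 2.86 and 1.86 on sectors 1 to 4, so that sector 1 stood apart in the same way.

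**Figure D2:**
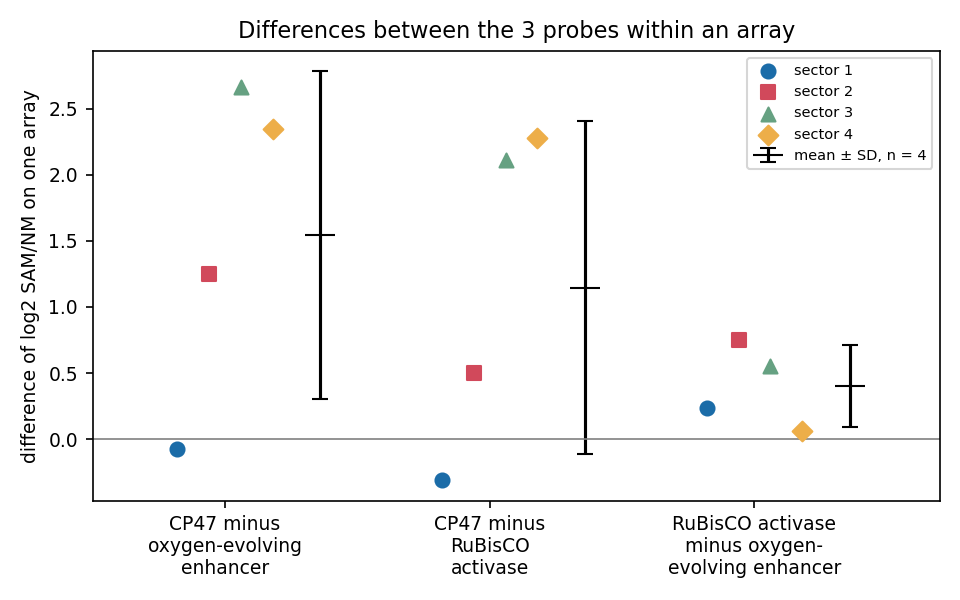
Difference between the normalized log2 SAM/NM ratios of 2 probes on the same array, with 1 point per array and the mean with its SD over 4 arrays in black. Both differences that involve CP47 run from just below 0 on sector 1 to above 2 on sectors 3 and 4, whereas RuBisCO activase minus the oxygen-evolving enhancer stays between 0.07 and 0.75.

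To see which tissue carried the variation, the intensity of each probe was set against the median intensity of its own array and channel, on the log2 scale. In the SAM the level of CP47 was -0.06, -0.15, -0.42 and -0.43 on sectors 1 to 4, and in the NM it was 2.81, 0.48, 0.64 and 0.87. The SAM level of the oxygen-evolving enhancer lay between -0.15 and 0.20, and its NM level was 2.97, 1.53, 4.04 and 3.36. The SAM level of RuBisCO activase lay between -0.73 and -0.26, and its NM level was 1.85, 0.48, 2.97 and 2.91. SAM and NM levels did not overlap for any of the 3 probes. Nothing is read from this, since the probes were chosen as lower in the SAM on these arrays. The share of all probes without overlap is not given here.

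On this scale the spread between arrays lay mostly in the NM signal. The SD of the NM level over 4 arrays was 1.09 for CP47, 1.06 for the oxygen-evolving enhancer and 1.17 for RuBisCO activase, against a median of 0.183 over all probes, and each was larger than in at least 99.5% of the probes. The SD of the SAM level was 0.19 for CP47, 0.15 for the oxygen-evolving enhancer and 0.21 for RuBisCO activase, against a median of 0.202 over all probes. These levels depend on the channel medians, which lay between 170.2 and 791.8. Before normalization the log2 SAM/NM of RuBisCO activase and the oxygen-evolving enhancer had an SD of 0.44 and 0.48, smaller than that of their NM levels. The NM levels of the 3 probes all lay above the channel median, so the median SD over all probes is not a comparison at like intensity. Of the 22 other photosynthesis and plastid probes described below, 20 also had a larger SD of the NM level than of the SAM level, with medians of 0.234 in the SAM and 0.793 in the NM. In the NM collection of sector 1 CP47 was at its highest while the other 2 transcripts were not, and in the NM collection of sector 3 the oxygen-evolving enhancer and RuBisCO activase were at their highest while CP47 was near its lowest. Both of these NM samples were labelled with Cy5. The metallothionein AB176564 had normalized log2 SAM/NM of -3.71, -3.60, -4.73 and -4.84 on sectors 1 to 4. The light-harvesting protein Lhcb3 (AY845255) had -2.24, -2.12, -2.92 and -3.04. After normalization the probe taken as a root marker and the probe taken as a marker of green tissue were thus both lower on sectors 3 and 4. Each of these markers is a single probe. The 5 dividing-cell probes, which were higher in the SAM, also had larger ratios on sectors 3 and 4. Their median log2 SAM/NM was 0.89, 0.62, 1.12 and 1.33 on sectors 1 to 4. With scaling between arrays, the SD of log2 SAM/NM fell from 0.94 to 0.59 for the oxygen-evolving enhancer and from 1.11 to 0.79 for RuBisCO activase. For CP47 it rose from 0.72 to 0.84. The parts that the makeup of the NM mixture and the width of the ratios on each array have in these values were not tested.

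**Figure D3:**
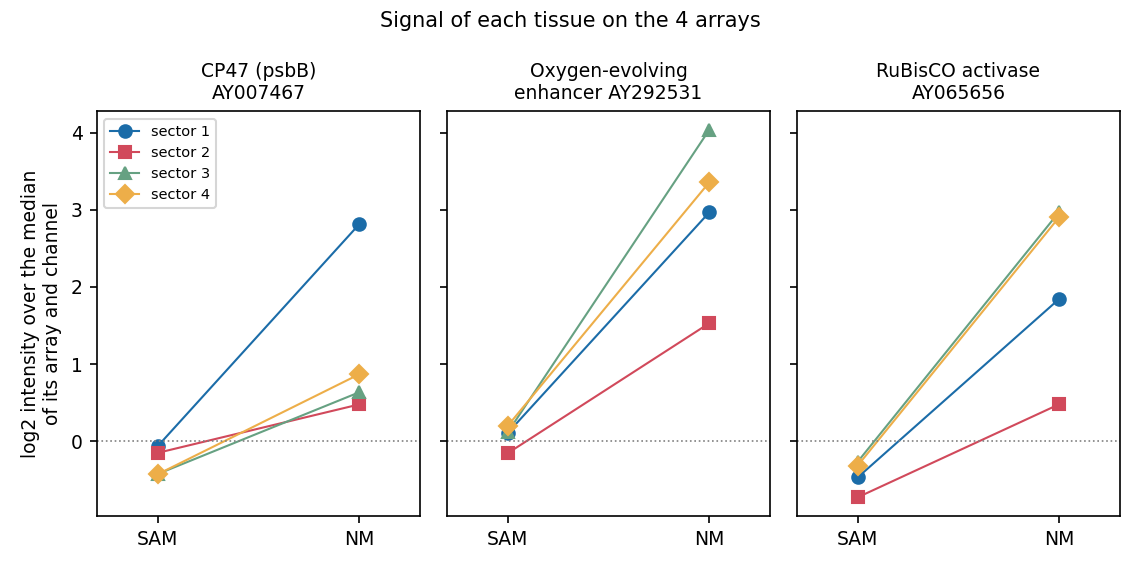
Log2 intensity of each probe over the median intensity of its array and channel in SAM and NM, with a line for each of the 4 arrays and 0 (dotted) at the channel median. The SAM points of a probe lie within 0.46 of each other, and the NM points spread over 2.33 for CP47, 2.51 for the oxygen-evolving enhancer and 2.49 for RuBisCO activase.

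The low SAM signals were not at the level of blank spots. On every array the SAM intensity of each of the 3 probes was above the brightest of the 6 blank spots of its channel. It was 3.51 to 5.27 times the median blank for CP47, 3.50 to 7.66 times for the oxygen-evolving enhancer and 2.35 to 5.88 times for RuBisCO activase. With the median blank of each channel subtracted before the logarithm, the mean log2 SAM/NM was -1.60 for CP47, -3.17 for the oxygen-evolving enhancer and -2.87 for RuBisCO activase, each lower than without subtraction. A blank spot carries no probe, so binding of other transcripts to a probe was not measured. The median log2 SAM/NM of the spots around each probe lay between -0.22 and 0.14 on the 4 arrays, small against the ratios themselves.

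The orientation of the dyes was tested. It was not itself a criterion for the choice of the probes. The study's calls rest on arrays of both orientations, however, so a probe with a large dye effect was less likely to be listed. CP47 averaged -1.71 on the arrays with SAM in Cy3 and -0.998 on those with SAM in Cy5. The oxygen-evolving enhancer averaged -3.00 and -2.80 on these pairs of arrays, and RuBisCO activase averaged -2.61 and -2.39. The dye effect, the log2 excess of Cy5 over Cy3 in a fit with tissue and dye, was 0.36 (standard error 0.22, adjusted p = 0.383, limma) for CP47. It was 0.10 (standard error 0.34, adjusted p = 0.872, limma) for the oxygen-evolving enhancer and 0.11 (standard error 0.40, adjusted p = 0.886, limma) for RuBisCO activase. At an adjusted p under 0.05, 0 of the 3 probes and 5 of all 2234, or 0.224%, had a dye effect, and at an unadjusted p under 0.05 again 0 of the 3 and 517 of all.

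Beside the 3 probes, 22 other probes were taken from the annotations of the study's lists as photosynthesis and plastid transcripts. The study had chosen these on the same arrays, so their direction is not independent evidence. Of the 22, 7 carry their GenBank name on the array. The other 15 are clones, which were matched to their accessions by the ratio and adjusted p given for them in these lists, so their values are not independent of the lists. On the arrays 20 of the 22 were called lower in the SAM (7.34% of all probes were), 1 was called higher (9.76% of all probes were) and 1 was not called. Their median log2 SAM/NM was -1.35, beside -0.0036 for all probes. With no normalization within arrays, 8 of the 22 were called lower.

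Among the light-harvesting transcripts, Lhcb3 (AY845255) and 3 other chlorophyll a/b binding proteins (EX569880, EX569551 and EX569675), which gather light for the photosystems, had log2 SAM/NM from -3.75 to -1.73. The photosystem I transcript annotated as PsAD (EX568889) had -2.87 ± 0.76 and PSI-K (EX569989) had -1.35 ± 0.39 (SD, n = 4 arrays). The 2 probes for ferredoxin-NADP+ reductase, which passes electrons to NADP+, had -1.80 (AF321528) and -1.12 (AF057182), and the ferredoxin EX569718 was the transcript called higher, at 0.44 (standard error 0.11, adjusted p = 0.031, limma).

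Among the carbon-fixing transcripts, the transcript EX570832 is annotated as RuBisCO, the enzyme on which RuBisCO activase acts, without its subunit. It had -2.81 ± 0.83 (SD, n = 4 arrays), with -2.74, -1.68, -3.23 and -3.60 on sectors 1 to 4. The ratios of RuBisCO activase, given above, were higher on sectors 1 and 2 and near these on sectors 3 and 4. Ribulose-5-phosphate 3-epimerase, an enzyme of the Calvin cycle, had -1.35 (EX569667) and -0.91 (AF255725). CP12, a small protein that binds Calvin cycle enzymes in the dark, had -1.34 (EX568806) and -0.99 (Z72489). Glycine decarboxylase (AM040954), a photorespiratory enzyme of mitochondria, had -2.06 ± 1.06 (SD, n = 4 arrays).

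The transcripts of chlorophyll synthesis, protochlorophyllide reductase (EX571136) and the Mg-protoporphyrin methyltransferase (EX569793), had -0.89 and -0.96 and were just above 0 on sector 2, at 0.06 and 0.05. Among the transcripts of plastid translation, the elongation factor Y14561 had -1.27, and the nuclear-encoded ribosomal protein S17 precursor (EX568989) had -0.48 with an adjusted p of 0.032 (limma) and a ratio of 0.715, just outside the limit of 0.7.

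**Figure D4:**
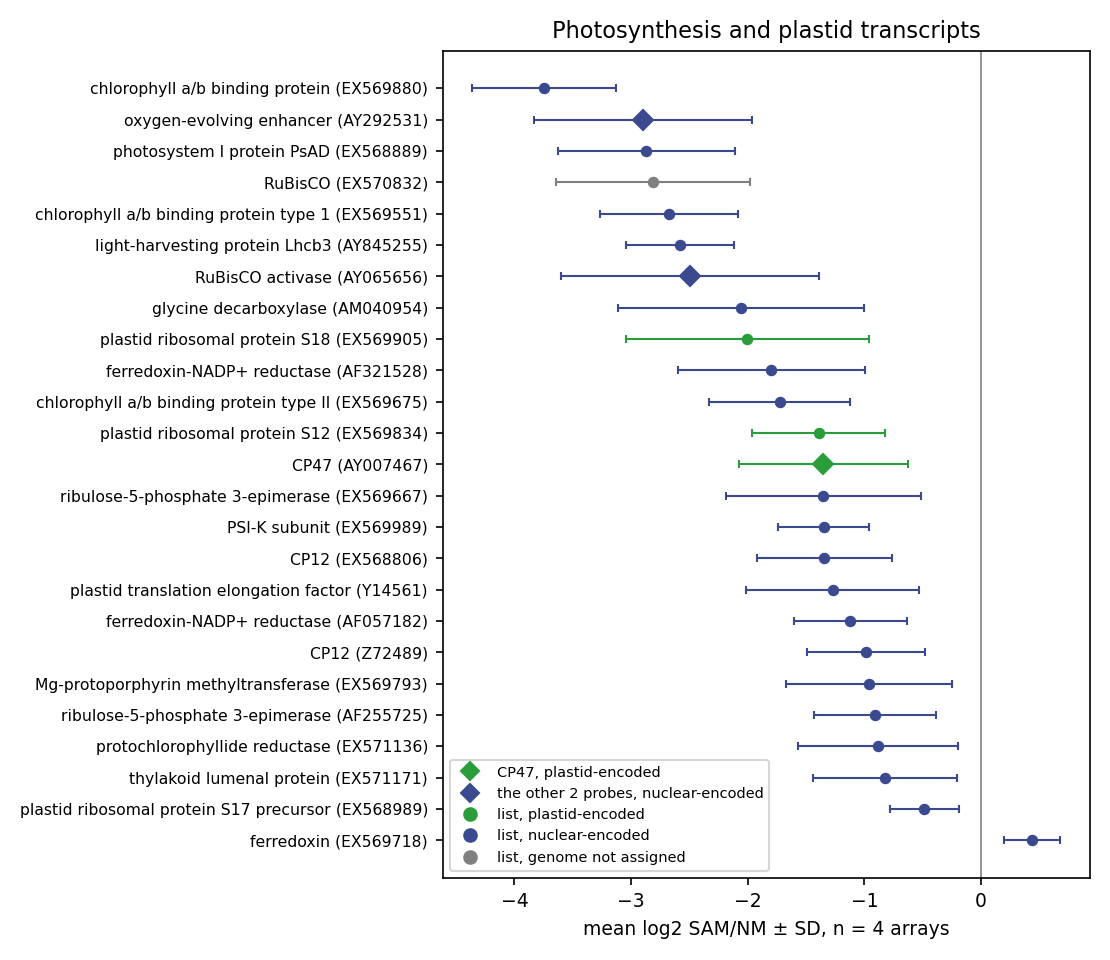
Mean log2 SAM/NM with its SD over 4 arrays for the 3 probes (diamonds) and the 22 photosynthesis and plastid probes (circles), coloured by the genome that encodes the transcript. The oxygen-evolving enhancer and RuBisCO activase lie among the light-harvesting, photosystem I and RuBisCO transcripts below -2.4, CP47 lies near the median of the 22, and ferredoxin alone lies above 0.

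The plastid-encoded transcripts were set beside each other, since CP47 varied over the arrays unlike the nuclear-encoded pair. The other plastid-encoded transcripts of the 22 are those of the ribosomal proteins S12 (EX569834) and S18 (EX569905), with a mean log2 SAM/NM of -1.39 and -2.00. S12 had log2 SAM/NM of -1.99, -0.62, -1.46 and -1.50 on sectors 1 to 4, lowest on sector 1 as CP47 was. S18 had -2.43, -0.58, -3.02 and -1.98, lowest on sector 3. As a measure chosen after these values were seen, the ratio on sector 1 minus the mean of sectors 3 and 4 was -1.16 for CP47, against 1.41 for the oxygen-evolving enhancer and 1.34 for RuBisCO activase. For S12 this measure was -0.51 and for S18 it was 0.07. Over the 19 nuclear-encoded transcripts of the list it had a median of 0.64 and ran from -0.47 to 1.22, with only ferredoxin below 0. After normalization CP47 thus lay below this range, and the oxygen-evolving enhancer and RuBisCO activase above it. The measure was not taken before normalization, and the split of the latter 2 transcripts between arrays depends on that step. Of all 2234 probes, 24.8% were lowest on sector 1, and of the 164 called lower, 18 were.

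The probes most like each of the 3 were found by the root mean square distance of the normalized log2 SAM/NM over the 4 arrays. The nearest to CP47 was the clone matched to the ribosomal protein S12 (distance 0.29), followed by the clones N0570 (0.57) and C0100 (0.58). The nearest to the oxygen-evolving enhancer were the photosystem I transcript EX568889 (0.26), the RuBisCO transcript EX570832 (0.36) and the chlorophyll a/b binding protein EX569551 (0.44). The nearest to RuBisCO activase were Y11824, listed as a hypothetical protein (0.36), the clone C0124 (0.37) and the RuBisCO transcript EX570832 (0.43). Among the 3 themselves the distance was 0.48 between RuBisCO activase and the oxygen-evolving enhancer, 1.58 between CP47 and RuBisCO activase and 1.88 between CP47 and the oxygen-evolving enhancer. These distances rest on 4 arrays and include the ratios by which the 3 probes were selected.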

How the data were processed

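RNA of SAM and NM was labelled with Cy5 or Cy3 and hybridized to 4 sectors of a CombiMatrix oligonucleotide array. The methods name the Kreatech ULS RNA ampULSe kit, used on total RNA. How labelling was primed is not given in the sources used here. It is therefore not known whether plastid-encoded and nuclear-encoded transcripts were labelled alike. The part of this in the differences between CP47 and the nuclear-encoded pair was not tested. The authors scanned and quantified the sectors, and deposited an intensity for each spot in each channel, before any normalization and with no local background. They also deposited log2 ratios of the first over the second channel, which equal a loess within arrays followed by scaling, to within 3.2e-08. The array whose label carries no number was taken as sector 1.

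Here 6 blank spots per array were left out. Log2 ratios of 2234 probes were normalized within arrays by limma's robust spline, as in the study's methods, without background subtraction, and turned by the dyes. LimmaGUI was the authors' tool. lmFit and eBayes (limma 3.58.1, R 4.3.3) gave 1 coefficient per probe, with Benjamini-Hochberg adjustment over all probes. A probe was called where the ratio was above 1.3 or below 0.7 with an adjusted p under 0.05. The procedure was tested on simulated data. The number of arrays, 4, limits the precision. Channel medians lay between 170.2 and 791.8. Correlations of the turned ratios between arrays, across probes, ran from 0.681 to 0.886.

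The named probes are the 3 members, the 22 listed photosynthesis and plastid probes, 6 marker probes and the 3 nearest probes of each member. Members and lists were chosen with earlier results of these data known. Alternatives changed the normalization, the scaling, the background, the starting values, the dye term, the filter on dim probes and the arrays used. No sequence was used here.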

Additional observations from a re-analysis of the deposited data

Results flagged for a closer look

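For 41 quantities the 4 arrays were searched for a value far from the rest, and 4 were found, where chance gives about 5% of such groups. The NM level of CP47 (AY007467) on sector 1, 2.81 on the log2 scale over its channel median, stood far from the other 3 arrays, which lay between 0.48 and 0.87. The corresponding log2 SAM/NM of CP47 did not pass the same limit. The other 3 values were those of dividing-cell markers on sector 3. Log2 SAM/NM was 2.92 for the proliferating cell nuclear antigen probe AB008186, against 1.46 to 1.67 on the other arrays. It was 2.84 for the second such probe, Y16796, against 1.60 to 1.80, and 0.81 for the mini-chromosome maintenance protein AY169794, against 0.43 to 0.47. The 2 probes for the nuclear antigen may share a target.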

How the results depend on the processing

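Under all 42 alternative values the mean log2 SAM/NM of the 3 probes stayed below 0, and under all 42 the means of the 3 differences between probes stayed above 0. Some alternatives could not change these means. With the dyes balanced over the arrays, the dye term leaves them as they are. Centring each array on its median gives the same differences as no normalization. The 3 probes were also chosen as lower in the SAM on these arrays. On sector 1 alone, both differences that involve CP47 were below 0, at -0.08 and -0.31. With 1 array left out, the mean ran from -1.58 to -1.02 for CP47, from -3.23 to -2.62 for the oxygen-evolving enhancer and from -2.94 to -2.13 for RuBisCO activase, and CP47 minus the oxygen-evolving enhancer ran from 1.17 to 2.09. With no normalization within arrays, 31 probes in place of 164 were called lower in the SAM, 49 in place of 218 higher, and 8 of the 22 photosynthesis and plastid probes in place of 20 lower. With each array centred on its median, 128 were called higher. The dye effect of RuBisCO activase was -0.20 with no normalization. With 1 array left out, the dye effect of CP47, 0.36 over all arrays, was 0.03 without sector 1, 0.19 without sector 2 and 0.68 without sector 3. The dye effect ran from -0.34 to 0.54 for the oxygen-evolving enhancer and from -0.50 to 0.72 for RuBisCO activase. No dye effect of the 3 probes had an adjusted p under 0.0891 (limma) in any alternative. The causes were not tested. Subtracting the surrounding spots and splitting the arrays by dye were chosen after seeing the data. Each ratio within an array already pairs the tissues of 1 collection, so no further paired fit was made. Signal was at least 2 times the median blank in both channels on all arrays for 2212 probes.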
